A study of Mus musculus with 2 samples.

Results

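The cells described here were fibroblasts recovered from mouse heart grafts on day 14 after transplantation. They were chosen by their deposited annotation, Fibroblasts, and by the detection of fewer than 3 of 7 endothelial genes (Pecam1, Cdh5, Kdr, Egfl7, Emcn, Fabp4 and Cd93). The rule kept 311 of the 375 annotated fibroblasts, which is 7% of the 4441 cells deposited. Of the annotated cells, 202 had a unique molecular identifier (UMI, a tag that marks 1 captured transcript) for none of the 7 genes, 88 had 1 and 21 had 2. Just outside the limit lay 5 cells with 3 of the genes, and the other cells left out numbered 8, 12, 19 and 20 with 4, 5, 6 and 7 of them. These counts selected the cells and were not tested.

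Cardiac fibroblasts are the mesenchymal cells of the myocardial interstitium and the vessel adventitia. They lay down fibrillar collagen and proteoglycans, and after injury they also release chemokines and cytokines that draw monocytes and lymphocytes into the tissue. In transplanted hearts they are a source of the collagen that replaces muscle during chronic rejection. IL-33, an alarmin stored in the nucleus of stromal cells, reaches immune cells through the receptor ST2, which the gene Il1rl1 encodes.

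The donor hearts were Bm12, a strain whose MHC class II I-A molecule carries a mutation, and all were placed in B6 mice, whose CD4+ T cells recognise that molecule. One group of 3 donors was wild type for Il33 (BM12 WT hearts 1, 2 and 3) and the other group of 3 lacked it (BM12 IL33 KO hearts 4, 5 and 6). All grafts were taken on day 14 with no drug treatment named, and the age of the mice was not given in the sources used here beyond age and sex matching. Each digest was passed over a density gradient meant to keep immune cells, tagged with its own hashtag antibody and pooled into 1 single-cell run, so the fibroblasts are those that an immune cell preparation carried along, and their number is not the number in the tissue. The comparison asks how fibroblast transcripts differ when the graft lacks IL-33, in recipients whose labels name no change in Il33.

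The groups are unequal in cell number. BM12 WT hearts 1, 2 and 3 gave 29, 4 and 223 of the fibroblasts, and BM12 IL33 KO hearts 4, 5 and 6 gave 23, 4 and 28. The median fibroblast held 5679 UMIs, with heart medians from 4560 to 7358, and the fibroblasts of a heart summed from 22452 UMIs in BM12 WT 2 to 1354499 in BM12 WT 3. No cell barcode occurred more than once. The hearts with 4 cells also stood apart in Gm42418, an RNA whose locus overlaps a ribosomal RNA repeat, at 59215 CPM (UMIs scaled to the same total in every cell) in BM12 WT 2 and 88758 in BM12 IL33 KO 5 against 13508 to 35989 in the other 4. The called genes are therefore given with and without these 2 hearts.

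As a check of the name, the 4 markers fixed for fibroblasts were read in the chosen cells and in the other annotated types. Decorin (Dcn), a small proteoglycan that binds collagen fibrils, averaged 15282 CPM and had a UMI in 97.7% of the cells. The fibrillar collagens Col3a1 and Col1a1 averaged 3887 and 3017 CPM, in 94.2% and 92% of cells, and Pdgfra, the receptor for platelet-derived growth factor that marks resident fibroblasts, averaged 447 CPM in 77.5%. The next highest type stood at 830 CPM for Dcn, 126 for Col3a1, 152 for Col1a1 and 34.8 for Pdgfra. As a background for these detections, NK cells, which should lack the genes, had a UMI of Dcn, Col3a1, Col1a1 and Pdgfra in 33.4%, 20.9%, 17.9% and 0.859% of cells at a median of 2712 UMIs. After every cell was thinned to 1500 UMIs the shares were 97.5%, 82.8%, 77.9% and 42.5% in the fibroblasts and 20.9%, 12.9%, 10.4% and 0.485% in NK cells, so each marker separated the cells from that background at equal depth. The markers go with the annotation, and since the annotation was made from gene expression in these same cells no test was run.

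**Figure D1:**
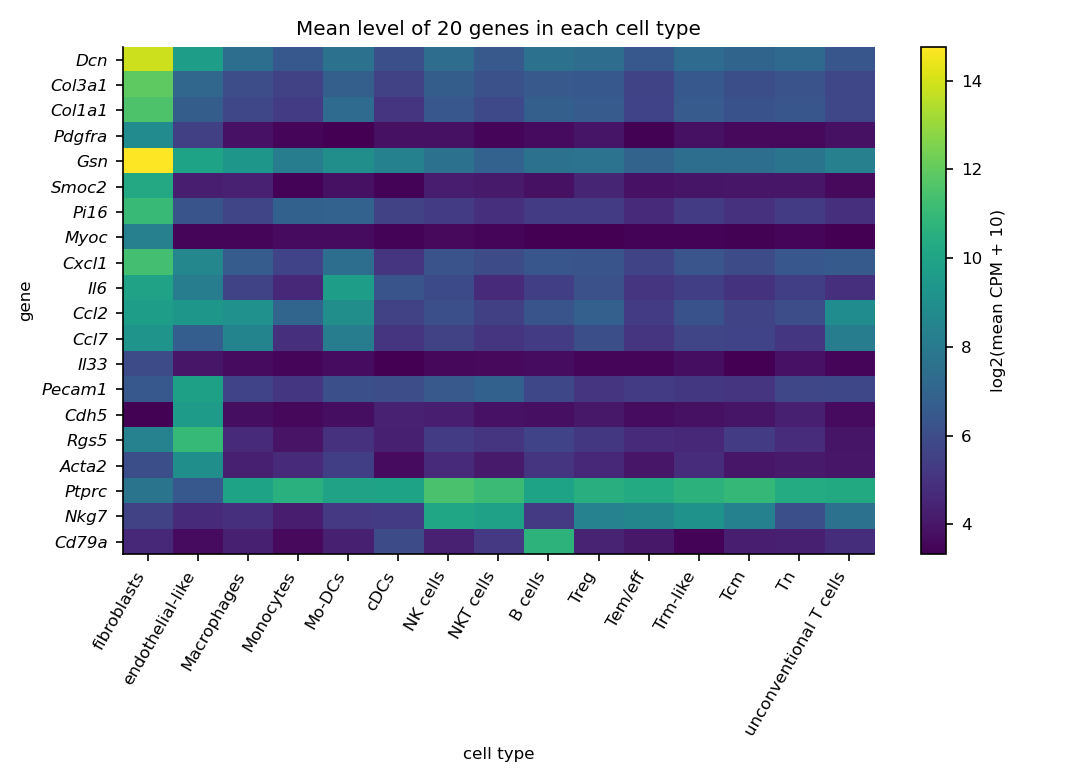
Mean level of 20 genes (rows) in the fibroblasts and in 14 other groups of cells (columns), as the colour of log2(mean CPM over cells + 10). Matrix genes such as Dcn, Col3a1 and Smoc2 are brightest in the fibroblast column, whereas Ptprc is low there, at 202 CPM against 2855 in NK cells.

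Among all genes other than mitochondrial and ribosomal protein genes, the highest mean levels belonged to Gsn (27669 CPM), which encodes the actin-severing protein gelsolin, and to the nuclear RNA Malat1 (25861 CPM). Gm42418, Dcn and the calcification inhibitor Mgp (8181 CPM) followed. Next came Tpt1 (5280 CPM), the immediate early transcription factor Egr1 (4367 CPM), the collagen chain Col1a2 (4300 CPM), Col3a1 and the elongation factor Eef1a1 (3502 CPM). These are means over all 311 cells, 223 of them from BM12 WT 3, and the order differed between hearts. Gsn led in BM12 WT 3 and BM12 IL33 KO 6, Gm42418 in BM12 WT 1, BM12 WT 2 and BM12 IL33 KO 5, and Malat1 in BM12 IL33 KO 4. Because 1 UMI stands for 1 transcript end, these levels do not scale with transcript length.

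The genes that set the fibroblasts furthest above the next type were secreted or matrix proteins in most cases. Myoc, which encodes myocilin, averaged 301 CPM, 114 times its level in monocytes, the next type. Smoc2, a matricellular calcium-binding protein, averaged 1195 CPM at a ratio of 93.8, and the membrane dipeptidase Dpep1 averaged 385 CPM at 86.6. Ratios from 57.8 down to 36.6 were found for the secreted protease Htra3, the adipogenesis gene Medag, the proteoglycan osteoglycin (Ogn), the ferritin receptor Scara5, the plasminogen-binding lectin Clec3b, Col1a2 and the Wnt antagonist Sfrp1. These ratios describe the cells that the annotation picked and carry no test.

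Within the fibroblasts, genes of adventitial and of resident interstitial cells were both present. Of the adventitial list, Dpt (dermatopontin) averaged 2500 CPM, Pi16 2045 CPM in 80.1% of cells and Cd34 734 CPM, while Dpp4 averaged 19.3 CPM. Of the resident list, Lpl averaged 1290 CPM and Col15a1 941 CPM, while Hsd11b1 averaged 45.4 CPM, Inmt 28.5 CPM and Npr3 6.66 CPM. Among lineage transcription factors Tbx20 averaged 246 CPM and Tcf21, which specifies cardiac fibroblasts, 171 CPM. Klf4, listed with the transcription factors and also with the immediate early and stress genes, averaged 2952 CPM.

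Several genes of the myofibroblast list were low. Acta2, the smooth muscle actin of myofibroblasts, averaged 56.2 CPM with a UMI in 9.65% of cells, Fap averaged 20.1 CPM and Lrrc15 0.389 CPM, and Cnn1 was not detected. Periostin (Postn) and connective tissue growth factor (Ccn2), which are induced in activated fibroblasts, were much higher, at 1022 and 897 CPM. Cald1 and Tpm1, also on the myofibroblast list, lay between, at 268 CPM in 66.2% of cells and 124 CPM in 41.5%. Endothelial-like cells, meaning the 64 annotated fibroblasts with 3 or more of the endothelial genes, held more Acta2, at 504 CPM.

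Markers of other cells varied in how far they reached into the fibroblasts. The 10 immune cell markers summed to 718 CPM over the fibroblasts, against 11736 CPM in monocytes, and 158 of the 311 cells had a UMI of 2 or more of them, including all 4 cells of BM12 IL33 KO 5. Ptprc, which encodes CD45, was detected in 43.4% of the fibroblasts (20.3% after thinning). The 9 cardiomyocyte markers summed to 20.2 CPM and the 4 lymphatic endothelial markers to 6.06 CPM, with Myh6 at 0. The Schwann cell markers Sox10 and Gfra3 were at 0, and the 6 mesothelial markers summed to 53.9 CPM. The 7 pericyte markers summed to 433 CPM, of which Rgs5 made up 323 CPM from 9.32% of cells, and 6 cells had a UMI of 3 or more of them.

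These few cells held a large part of the UMIs of several secreted signals. The fibroblasts held 80.8% of all Il33 UMIs of the series (143 of 177), 80.2% of those of the neutrophil chemokine Cxcl1 (5812 of 7246), 79.2% of Cxcl14 (308 of 389), 73.5% of the eotaxin gene Ccl11 (75 of 102) and 62.8% of Il6 (2023 of 3220). They also held 87.6% of the UMIs of Egfr, the receptor for amphiregulin (176 of 201), but only 3.16% of those of its ligand gene Areg (28 of 886). For Ccl2 and Ccl7, ligands of CCR2 that recruit monocytes, the shares were 36.9% and 39.8%, and macrophages held 1559 of 5065 and 1044 of 3135 UMIs. BM12 WT 3 supplied 120 of the 143 Il33 UMIs, 4442 of the 5812 of Cxcl1 and 266 of the 308 of Cxcl14. Without that heart the fibroblast shares were 52.3% for Il33, 63.7% for Cxcl1, 48.3% for Cxcl14, 44.8% for Ccl11, 58% for Il6, 72.3% for Egfr, 35% for Ccl2 and 32.6% for Ccl7. Such shares depend on how many cells of each type passed the gradient.

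The share of fibroblasts among the cells of a heart did not separate the groups. It was 3.35%, 1.74% and 13.4% in BM12 WT hearts 1, 2 and 3, with exact Clopper-Pearson 95% intervals of 2.25 to 4.77%, 0.476 to 4.39% and 11.8 to 15.1%. In BM12 IL33 KO hearts 4, 5 and 6 it was 2.75%, 1.41% and 5.01%, with intervals of 1.75 to 4.1%, 0.385 to 3.57% and 3.35 to 7.16%, all covering counting error only. The groups overlapped, and BM12 WT 3 alone lay above the rest. The means were 6.16% ± 6.31 (SD, n = 3) and 3.06% ± 1.82 (SD, n = 3), with p = 0.6 in a two-sided exact permutation test over hearts, whose smallest possible p is 0.1. Without BM12 WT 3 the difference turned from 3.10 to -0.51 percentage points.

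Il33, the gene removed from the donor hearts, did not mark the knockout fibroblasts in these counts. In BM12 WT hearts 1, 2 and 3 it averaged 28.5, 0 and 60.8 CPM, from 7, 0 and 120 UMIs. In BM12 IL33 KO hearts 4, 5 and 6 it averaged 32, 73.8 and 17.3 CPM, from 8, 3 and 5 UMIs. The groups overlapped, with a log2 difference (BM12 WT minus BM12 IL33 KO) of -0.61 ± 0.88 (SE, limma, adjusted p = 0.999). NK cells had an Il33 UMI in 0.43% of cells (0.272% after thinning) against 17.4% of fibroblasts (5.86%). In the hearts labelled BM12 IL33 KO 4, 5 and 6 the share was 21.7%, 50% and 10.7% of fibroblasts. The UMIs are 3' tags and the sources used here do not give the deleted part of Il33, so they check the genotype only if the deletion reaches that end. The groups are named by their labels throughout.

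Fibroblast transcripts were then compared between the graft groups with hearts as replicates, 3 against 3. Differences are given on the log2(mean CPM + 10) scale as BM12 WT minus BM12 IL33 KO, which understates the change of genes near 10 CPM, each with its standard error (SE) and a p adjusted over all genes tested. In the fit of all 6 hearts these SEs and p-values rest on the variance usual at a gene's level. The gene's own spread between hearts had no weight in them. In the hearts labelled BM12 WT, 6 genes were lower (Ccl2, Ccl7, Cxcl10, Igfbp5, Ndrg1 and Col1a1) and 7 were higher (Hbb-bs, Hbb-bt, Hba-a1, Hba-a2, Nop58, Cebpd and Smoc2). These 13 are 0.129% of the 10063 genes tested, at an adjusted p of 0.05 or less. Only Ccl2, Ccl7, Nop58, Cebpd and Hbb-bt had groups that did not overlap; over all genes tested 3.87% had every BM12 WT heart above every BM12 IL33 KO heart, and 3.91% the reverse. In the other 8 the groups overlapped. In each of the 13, with or without overlap, BM12 WT 2 or BM12 IL33 KO 5 was the lowest or the highest heart.

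**Figure D2:**
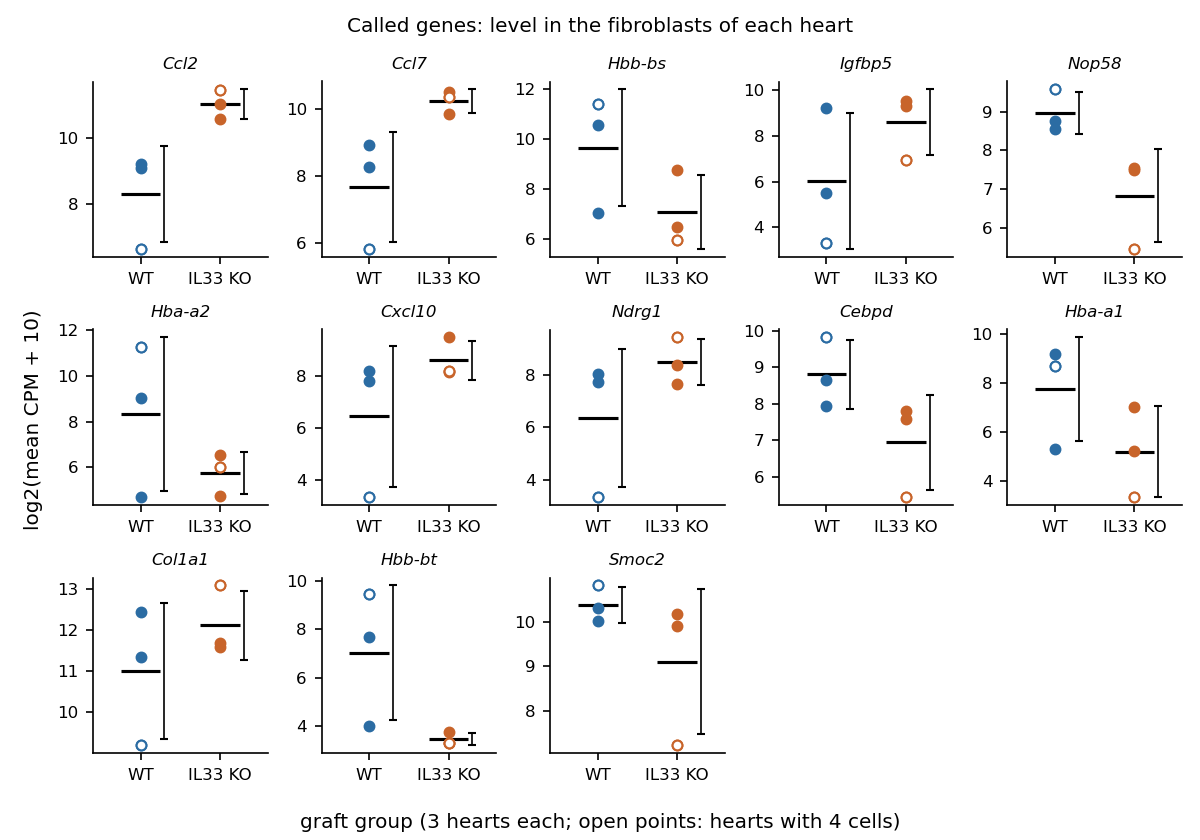
Mean CPM over fibroblasts in each heart for the 13 genes, on a log axis of log2(mean CPM + 10), with a line for the group mean and a bar for the SD of the 3 hearts. Open points are the hearts with 4 fibroblasts, and Ccl2 and Ccl7 sit higher in every BM12 IL33 KO heart, at 1512 to 2806 and 912 to 1458 CPM, than in any BM12 WT heart.

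Ccl2 (monocyte chemoattractant protein 1) and Ccl7 (monocyte chemoattractant protein 3) gave the smallest adjusted p-values. In GRCm38 both lie on the plus strand of chromosome 11, Ccl2 at chr11:82035571-82037453 and Ccl7 at chr11:82045712-82047525, with 8258 bases between them. In BM12 WT hearts 1, 2 and 3 Ccl2 averaged 534, 90 and 590 CPM, and in BM12 IL33 KO hearts 4, 5 and 6 it averaged 1512, 2806 and 2083 CPM. Every knockout heart was above every wild-type heart, with means of 405 ± 274 (SD, n = 3) and 2133 ± 649 CPM (SD, n = 3). The lowest heart, BM12 WT 2, and the highest, BM12 IL33 KO 5, were those with 4 fibroblasts. The log2 difference was -2.70 ± 0.32 (SE, limma, adjusted p = 1.4e-13). That SE and p rest on the variance usual at this level, not on the spread of Ccl2 between these hearts. Ccl7 averaged 303, 46.5 and 477 CPM against 912, 1298 and 1458 CPM, a log2 difference of -2.56 ± 0.35 (SE, adjusted p = 9.2e-10). Its groups were separated as well, and BM12 WT 2, the heart with 1 Ccl7 UMI, was the lowest.

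The groups overlapped in the share of cells with these transcripts, although they did not in the mean level. A Ccl2 UMI was found in 18 of 29, 2 of 4 and 99 of 223 fibroblasts of BM12 WT hearts 1, 2 and 3, and in 12 of 23, 3 of 4 and 15 of 28 of BM12 IL33 KO hearts 4, 5 and 6. Thinned to 1500 UMIs, the shares were 35.3%, 13.1% and 27.0% against 33.5%, 74.7% and 37.0%, and the groups overlapped (two-sided exact permutation p = 0.2). NK cells showed 14.1%, or 8.46% after thinning, as background. The corresponding test for Ccl7 gave p = 0.3 (exact permutation over hearts), and the p adjusted over the 32 genes compared was 0.64 for both chemokines. Cells with over 1000 CPM of Ccl2 numbered 4 of 29, 0 of 4 and 32 of 223 in the wild-type hearts and 5 of 23, 3 of 4 and 8 of 28 in the knockout hearts. Of all 311 fibroblasts, 83 had both chemokines, 66 Ccl2 alone, 41 Ccl7 alone and 121 neither.

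**Figure D3:**
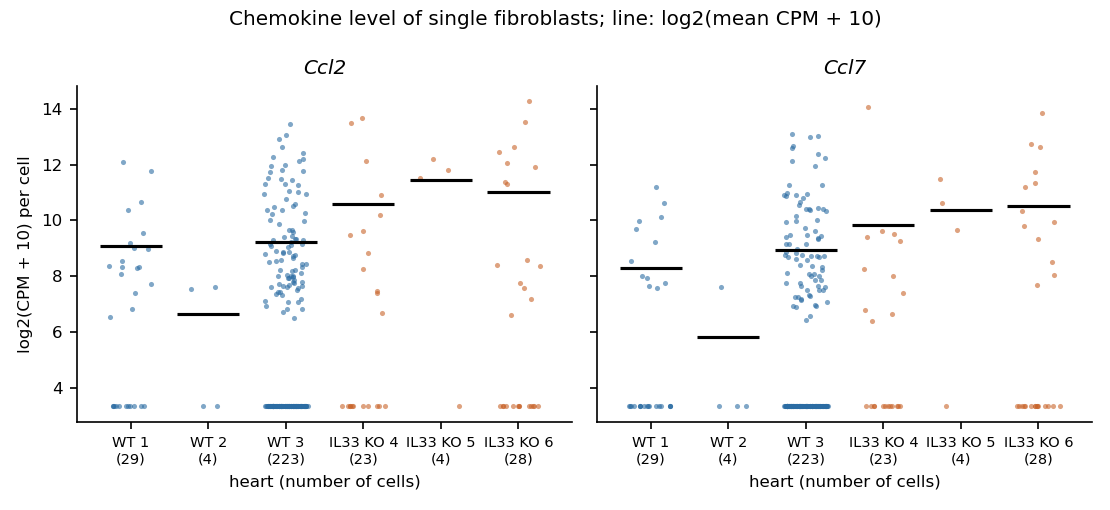
CPM of Ccl2 and Ccl7 in each fibroblast, by heart, on a log axis. Most fibroblasts of BM12 WT 3 have no UMI of either gene (99 of 223 have Ccl2), and the highest cell of BM12 IL33 KO 6 reaches 19767 CPM of Ccl2.

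Single cells carried much of these means. The cell with the most Ccl2 made up 28.1%, 51.6% and 8.44% of the level of BM12 WT hearts 1, 2 and 3, and 37.5%, 42.1% and 33.9% of that of BM12 IL33 KO hearts 4, 5 and 6. With the highest cell of each heart left out, Ccl2 averaged 398, 58 and 543 CPM against 988, 2165 and 1428 CPM, and the groups stayed apart (log2 -2.56, adjusted p = 9.19e-05). For Ccl7 1 cell of BM12 IL33 KO 4 held 82.3% of that heart's level. Without the highest cells Ccl7 averaged 231, 0 and 439 CPM against 169, 790 and 963 CPM, the groups overlapped and the adjusted p was 0.532.

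The 2 chemokines were also read in other cells of the same hearts. Macrophages averaged 238, 752 and 1290 CPM of Ccl2 in BM12 WT hearts 1, 2 and 3 and 535, 201 and 352 CPM in BM12 IL33 KO hearts 4, 5 and 6. All cells other than the fibroblasts averaged 115, 113 and 207 CPM against 143, 78.8 and 101 CPM. The difference between the fibroblast and the macrophage effect was -3.55 ± 0.99 on the log2 scale for Ccl2 and -4.44 ± 1.34 for Ccl7 (SE, limma on the within-heart difference), but the adjusted p was 0.982 for both, so an effect particular to fibroblasts was not established. None of 8496 genes passed that test (0%), and 261 had an unadjusted p of 0.05 or less.

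Immune markers were considered beside these chemokines, since macrophages also make them. The summed immune list ran from 621 to 1038 CPM in the wild-type hearts and from 737 to 1311 CPM in the knockout hearts, with all 10 markers detected, and none of the 10 was called. Among the fibroblasts with fewer than 2 immune markers, Ccl2 averaged 457, 0 and 457 CPM in BM12 WT hearts 1, 2 and 3 and 2246 and 4528 CPM in BM12 IL33 KO hearts 4 and 6, with no such cell in heart 5. That subset had 16, 2 and 115 cells in the wild-type hearts and 8 and 12 in the knockout hearts 4 and 6. In it, limma gave Ccl2 a log2 difference of -4.62 (adjusted p = 2.05e-10). The 0 of BM12 WT 2 came from 2 cells, so the size of that difference depends on the 10 CPM added. Among those with 2 or more immune markers Ccl2 averaged 628, 180 and 732 CPM against 1120, 2806 and 248 CPM, and the groups overlapped, since BM12 IL33 KO 6 lay below 2 wild-type hearts. Ccl7 averaged 327, 92.9 and 591 CPM against 1267, 1298 and 251 CPM in these cells, which overlapped too. In the cells with fewer than 2 markers Ccl7 averaged 284, 0 and 371 CPM against 246 and 3067 CPM, so the groups overlapped, and the log2 difference was -3.10 (adjusted p = 0.0477).

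Of the 14 tested genes of the 15 chemokines listed, 3 fell among those called (Ccl2, Ccl7 and Cxcl10), where 0.129% of all genes were called. All 3 were lower in the hearts labelled BM12 WT. The median log2 difference of the list was 0.07, against -0.02 over all genes tested. Counting instead a change of at least 2-fold whose p before adjustment did not exceed 0.05, 4 chemokines were lower and 1 was higher, where 1.43% and 1.74% of all genes were. Cxcl1, the most abundant chemokine of these cells, averaged 1820, 1956 and 2886 CPM against 1506, 2947 and 2221 CPM, with overlapping groups and a log2 difference of 0.02 ± 0.28 (SE).

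Cxcl10, the interferon-induced ligand of CXCR3, averaged 217, 0 and 281 CPM in BM12 WT hearts 1, 2 and 3 and 275, 283 and 708 CPM in BM12 IL33 KO hearts 4, 5 and 6. The groups overlapped, and the 0 of BM12 WT 2 came from 4 cells. The log2 difference was -2.17 ± 0.45 (SE, adjusted p = 0.0024), and -0.82 without the hearts of 4 cells (adjusted p = 0.802). Cxcl14, a chemokine of stromal cells, averaged 43.9, 279 and 218 CPM against 179, 0 and 16.7 CPM and did not pass the test (log2 2.05 ± 0.64, adjusted p = 0.406). In BM12 IL33 KO 4 that level came from 1 of 23 cells. Its thinned shares of cells did not overlap, at 4.94%, 21.5% and 12.2% against 4.34%, 0% and 2.16% (exact permutation p = 0.1, adjusted p = 0.64), with 0.375% in NK cells. Cxcl16 and Ccl11 did not pass either, with log2 differences of -2.05 ± 0.64 and 1.56 ± 0.93. Ccl11 rested on 75 UMIs, of which 5 were from the knockout hearts 4 and 6.

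Among cytokines and their receptors none of the 19 tested genes of 23 was called, with a median log2 difference of -0.21. Il6 averaged 571, 1023 and 976 CPM against 889, 876 and 1194 CPM, with overlapping groups. Il2rg, the common gamma chain of lymphocyte cytokine receptors, averaged 8.46, 0 and 22.9 CPM against 58.1, 207 and 26.2 CPM. Its groups did not overlap (log2 -2.15 ± 0.87, adjusted p = 0.999), and NK cells averaged 288 CPM. Il34 had 10 UMIs over the 311 fibroblasts, Il1rl1 7, and Il31 and Il13ra2 had 1 UMI each, so no difference was detectable at this depth. The IL-33 receptor gene Il1rl1 averaged 4.06 CPM in fibroblasts and 477 CPM in Tregs.

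The amphiregulin receptor Egfr was detected in 38.6% of the fibroblasts (12.7% after thinning) and in 0.215% of NK cells (0.104%). It averaged 77.1, 158 and 96.3 CPM in the wild-type hearts and 54.1, 102 and 97.9 CPM in the knockout hearts, which overlapped (log2 0.33 ± 0.56). No growth factor or receptor was called among 22 tested of 24, with a median of -0.08. Pdgfra averaged 443, 572 and 477 CPM against 353, 183 and 308 CPM. Every wild-type heart was above every knockout heart, the log2 difference was 0.84 ± 0.37 (SE), and the adjusted p was 0.999. Its share of cells after thinning was 37.6%, 44.4% and 45.5% against 35.2%, 23.3% and 32.5%, with p = 0.1 in the exact permutation test, the smallest it can give (adjusted p = 0.64). Of 32 genes whose thinned share was compared in this way, 4 reached that p, namely Pdgfra, Cxcl14, Cxcl10 and Nop58, and the adjusted p was 0.64 for each.

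Of 17 collagen genes tested, 1 was called (0.129% of all genes were) and the median log2 difference was -0.11. Of the 17, 6 were above 0, as were 4871 of the 10063 genes tested. Col1a1, the main chain of type I collagen, averaged 5570, 577 and 2591 CPM in BM12 WT hearts 1, 2 and 3 and 3064, 8674 and 3263 CPM in BM12 IL33 KO hearts 4, 5 and 6. BM12 WT 2 and BM12 IL33 KO 5, the hearts with 4 cells, were the lowest and the highest, and the other 4 hearts interleaved. The log2 difference of -1.12 ± 0.27 (SE, adjusted p = 0.03) became 0.26 without those 2 hearts (adjusted p = 0.966), and 77.4% of the Col1a1 level of BM12 IL33 KO 5 came from 1 cell. Its partner chain Col1a2 gave -0.81 ± 0.26 (adjusted p = 0.471) and Col3a1 -0.52 ± 0.27 (adjusted p = 0.999). The basement membrane chains Col4a1 and Col4a2 stood at 0.44 ± 0.34 and 0.95 ± 0.46 and did not pass.

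None of the 25 matrix glycoproteins and proteoglycans and none of the 18 matrix enzymes and inhibitors was called, with medians of 0.01 and -0.17. Dcn averaged 11075, 15596 and 16223 CPM against 14547, 11775 and 13209 CPM (log2 0.10 ± 0.25). Elastin (Eln) averaged 1151, 160 and 1093 CPM against 510, 1248 and 2714 CPM (log2 -1.01 ± 0.31, adjusted p = 0.406), and fibronectin (Fn1) gave -1.04 ± 0.33 (adjusted p = 0.412). In the direction of higher values in BM12 WT, the elastic fibre protein Emilin1 gave 1.46 ± 0.51 and Ogn 0.93 ± 0.33, neither past the adjusted threshold although their groups did not overlap. Mmp14, a membrane-bound collagenase, averaged 625, 66.9 and 511 CPM against 445, 1413 and 543 CPM (log2 -1.27 ± 0.35, adjusted p = 0.176). Among 14 tested myofibroblast genes none was called, the median was 0.02 and Ccn2 stood at 1.04 ± 0.33 (adjusted p = 0.451).

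Smoc2, one of the genes most restricted to these fibroblasts, was called as higher in the hearts labelled BM12 WT. It averaged 1023, 1777 and 1258 CPM in BM12 WT hearts 1, 2 and 3 and 950, 141 and 1140 CPM in BM12 IL33 KO hearts 4, 5 and 6. The groups overlapped in heart 6, and the low value was that of BM12 IL33 KO 5, from 3 UMIs. The log2 difference was 1.27 ± 0.31 (SE, adjusted p = 0.039) and became 0.12 without the hearts of 4 cells (adjusted p = 0.982). Smoc2 was the only 1 of the 12 resident fibroblast genes called. The median of that list was 0.36, that of the 10 adventitial genes 0.10 and that of the 13 transcription factors 0.27, with none called in the latter lists.

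Nop58, a core protein of the box C/D ribonucleoproteins that modify ribosomal RNA, averaged 427, 754 and 365 CPM in BM12 WT hearts 1, 2 and 3 and 178, 33.2 and 171 CPM in BM12 IL33 KO hearts 4, 5 and 6. Every wild-type heart was above every knockout heart (log2 2.14 ± 0.42, adjusted p = 0.00068). Without the hearts of 4 cells the value was 1.13 and was not called (adjusted p = 0.0582). Cebpd, a transcription factor of the acute phase response, averaged 238, 895 and 396 CPM against 213, 33.2 and 183 CPM. Its groups were closest between BM12 WT 1 and BM12 IL33 KO 4 and did not overlap, and the log2 difference was 1.87 ± 0.42 (adjusted p = 0.0098), and 0.61 without the hearts of 4 cells (adjusted p = 0.965).

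Igfbp5, a secreted binding protein of insulin-like growth factors, averaged 35.4, 0 and 597 CPM against 636, 114 and 729 CPM (log2 -2.58 ± 0.48, adjusted p = 0.00014). The groups overlapped, since BM12 WT 3 was above BM12 IL33 KO 5. Among its cells, 1 held 100% of the level in BM12 IL33 KO 5 and 62.8% in BM12 IL33 KO 4. Ndrg1, a gene induced by hypoxia and stress, averaged 256, 0 and 201 CPM against 327, 686 and 195 CPM (log2 -2.14 ± 0.46, adjusted p = 0.0047), and BM12 IL33 KO 6 lay below 2 of the wild-type hearts. Without the hearts of 4 cells Igfbp5 stood at -2.06 (adjusted p = 0.00666) and Ndrg1 at -0.15 (adjusted p = 0.982).

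Hemoglobin genes made up 4 of the 7 genes higher in the hearts labelled BM12 WT. Hbb-bs averaged 119, 2693 and 1498 CPM in BM12 WT hearts 1, 2 and 3 and 77.4, 52.3 and 419 CPM in BM12 IL33 KO hearts 4, 5 and 6. BM12 WT 2 and BM12 WT 3 were high, and BM12 WT 1 lay below BM12 IL33 KO 6 (log2 2.61 ± 0.38, adjusted p = 3.8e-08). The levels sat in few cells, with 1 cell holding 95.9% of the level in BM12 WT 2, 43.4% in BM12 WT 3 and 89.9% in BM12 IL33 KO 6. Hba-a2 and Hba-a1 gave log2 differences of 2.56 ± 0.51 (adjusted p = 0.00081) and 2.54 ± 0.59 (adjusted p = 0.019). Hbb-bt had 1 UMI in all knockout fibroblasts, so its fitted value of 3.57 ± 0.87 (adjusted p = 0.036) depends on the 10 CPM added. BM12 WT 1 had only 2 Hbb-bt UMIs, so the separation of its groups rests on counts near 0. In BM12 WT 2 all 5 Hbb-bt UMIs came from 1 cell. Without the hearts of 4 cells none of the 4 was called, with log2 differences of 1.19 for Hbb-bs, 1.21 for Hba-a2, 1.12 for Hba-a1 and 2.30 for Hbb-bt.

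The red blood cell list, these 4 genes and Alas2, summed to 171, 6228 and 2785 CPM in the wild-type hearts and to 122, 107 and 625 CPM in the knockout hearts. Cells other than fibroblasts in the same hearts averaged 539, 1410 and 1206 CPM of Hbb-bs against 1029, 1452 and 558 CPM, without an order by group. The part of red blood cell RNA in the other differences was not tested.

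Complement, a product of fibroblasts in many tissues, was abundant and not called in any of 9 genes (median -0.26). C3, the central component of the cascade, averaged 1673, 2066 and 1866 CPM against 1630, 2128 and 3189 CPM. Of 20 tested interferon and MHC genes none was called (median 0.14). The class I gene H2-K1 averaged 2373 CPM in the fibroblasts, and the class II genes stayed low, with H2-Ab1 at 126 CPM against 5689 CPM in cDCs. Tap1, a peptide transporter for class I loading, averaged 80.4, 0 and 64.8 CPM against 92.4, 174 and 166 CPM (log2 -1.87 ± 0.63, adjusted p = 0.496).

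Of 20 immediate early and stress genes none was called (median 0.10). Egr1 averaged 5222, 4722 and 4274 CPM against 3643, 2134 and 5081 CPM (log2 0.47 ± 0.26). Of 10 tested Wnt pathway genes none was called, with a median of -0.39. Most proliferation genes were sparse, with 6 of 14 tested and none called (median -0.09). Pcna and Hmgb2 were higher, at 206 and 145 CPM, whereas Mki67 had 6 UMIs in all fibroblasts, too few to compare the groups. Of the smooth muscle and pericyte lists 4 genes each were tested, none was called and the medians were -1.06 and -0.69. The summed smooth muscle markers ran from 0 to 91.1 CPM in the wild-type hearts and from 0 to 442 CPM in the knockout hearts, with Cnn1 at 0, and the pericyte markers from 69 to 508 CPM and from 69.1 to 468 CPM. Their part in the differences was not tested.

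**Figure D4:**
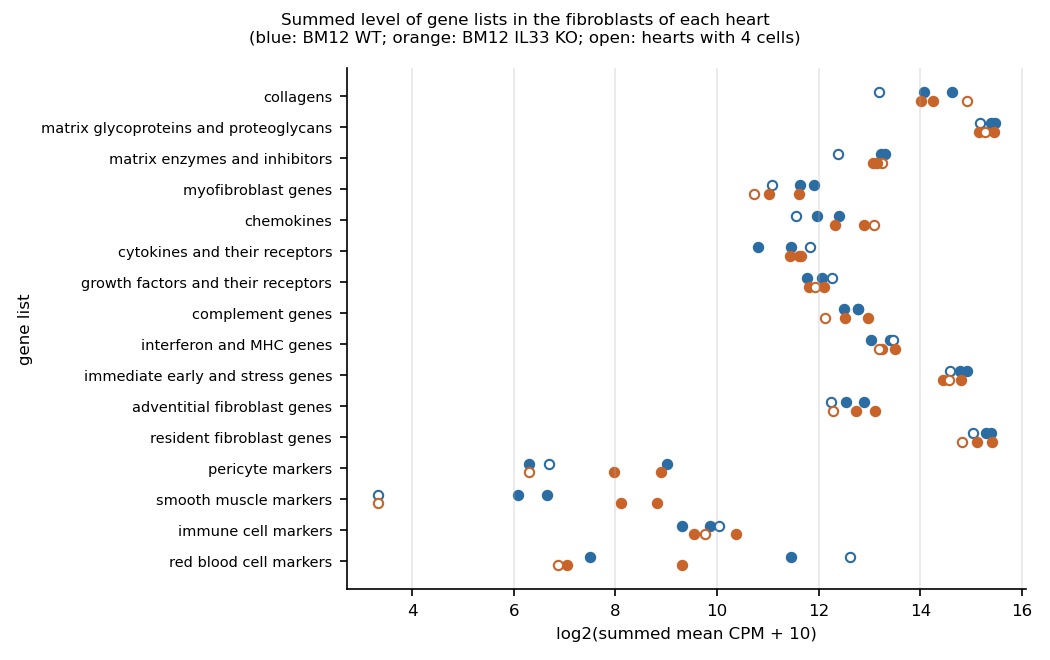
Summed mean CPM of 16 gene lists in the fibroblasts of each heart, on a log axis of log2(sum + 10), with the graft groups in 2 colours and open points for the hearts with 4 fibroblasts. Collagens overlap between groups (9307 to 25365 CPM in BM12 WT and 16557 to 31071 CPM in BM12 IL33 KO), and red blood cell markers are highest in BM12 WT 2 and BM12 WT 3.

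With the 13 called genes included, 319 genes (3.17% of those tested) were past 2-fold at an unadjusted p of 0.05 or less. Of the 96 genes with 100 or more UMIs, an unadjusted p of 0.05 or less and groups that did not overlap, 32 were lower and 64 higher in the hearts labelled BM12 WT. Over all 10063 genes tested, with no limit on UMIs or p, 3.87% had BM12 WT above without overlap and 3.91% the reverse. The share among all genes with 100 or more UMIs is not given here, so the split of 32 and 64 is not read as a direction. After Ccl2 and Ccl7 the lower genes with the largest differences were Numa1 (-2.03), Tap1, Smim10l1 (-1.85), Maged2 (-1.80), Ndst1 (-1.71) and Rgs16 (-1.68), and all 6 read 0 CPM in BM12 WT 2. Among the higher genes Bdnf (2.43), Itgbl1 (2.22), Spred1 (2.17), the procollagen proteinase enhancer Pcolce2 (2.11), Fibin (2.10) and Serpina3n (1.97) all read 0 CPM in BM12 IL33 KO 5. Of these 12 genes Pcolce2 had the smallest adjusted p, 0.07, with 185, 290 and 200 CPM against 135, 0 and 94.6 CPM.

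With the 2 hearts of 4 cells left out, 14 genes were called and 3 of them were among the 13 (Ccl2, Ccl7 and Igfbp5). Ccl2 then stood at 534 and 590 CPM against 1512 and 2083 CPM, a log2 difference of -1.64 ± 0.24 (adjusted p = 1.9e-05), and Ccl7 at -1.57 ± 0.25 (adjusted p = 0.00018). The other 11 genes were named after their values were seen. Lower in the hearts labelled BM12 WT were the long pentraxin Ptx3 (-1.72), the interferon-induced genes Rsad2 (-2.71) and Ifit1 (-1.90), the smooth muscle genes Myh11 (-2.96) and Tagln (-2.10), the small heat shock protein Cryab (-1.53), Emb (-2.01) and Kdm2b (-2.08). Higher were the matrix proteins Cilp (1.29) and Ccn2 (1.06) and the growth factor pleiotrophin (Ptn, 1.44). Cilp averaged 592 and 443 CPM in BM12 WT hearts 1 and 3 against 193 and 216 CPM in BM12 IL33 KO hearts 4 and 6. Ptx3 averaged 109 and 326 CPM against 488 and 863 CPM. Both were picked from the calls in these same 4 hearts, so their separation adds no support.

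**Figure D5:**
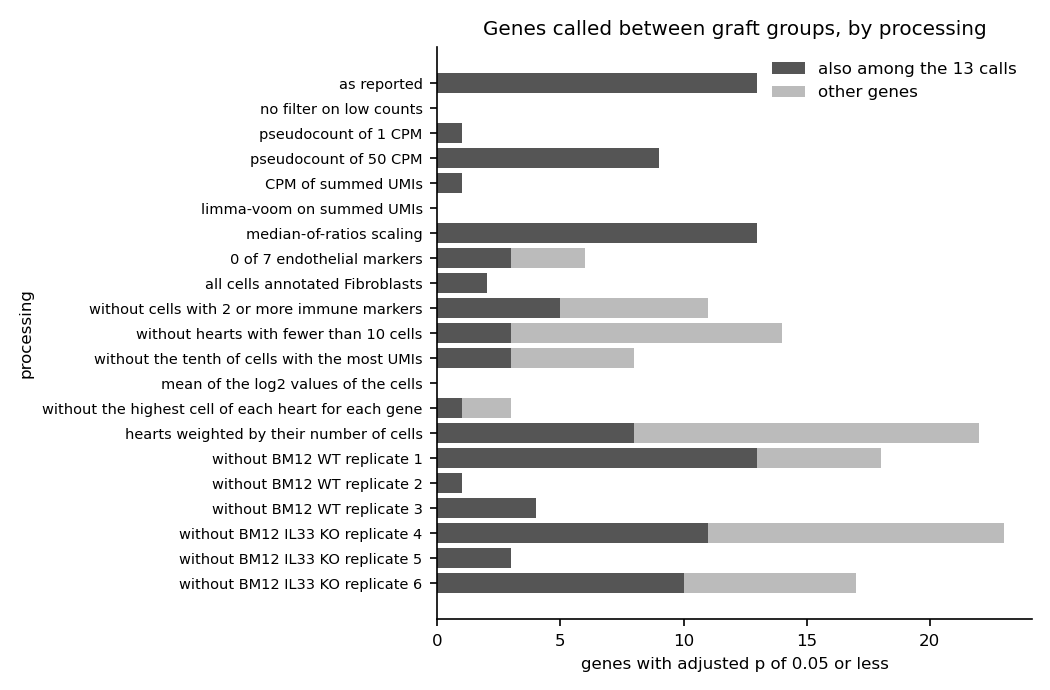
Number of genes called between the graft groups (adjusted p of 0.05 or less) under each way of processing, with the reported analysis at 13. The number runs from 0, with no filter on low counts, with limma-voom and with the mean of log2 values, to 23 without BM12 IL33 KO 4.

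The number of called genes thus depended on single hearts and on how cells were averaged. It fell to 1 without BM12 WT 2, to 3 without BM12 IL33 KO 5 and to 4 without BM12 WT 3, and rose to 23 without BM12 IL33 KO 4. Ccl2 was lower in the hearts labelled BM12 WT under all 20 alternatives (log2 -4.62 to -1.64) and was called in 17. The -4.62 was that without cells of 2 or more immune markers, where BM12 WT 2 had 2 cells. Ccl7 was lower in all 20 (-3.19 to -1.06) and called in 13. The other called genes held in fewer, with 8 for Hbb-bs, 7 for Hba-a2, 6 each for Nop58, Cebpd, Igfbp5 and Hba-a1, 5 for Cxcl10 and Col1a1 and 4 for Ndrg1, Smoc2 and Hbb-bt. The Ccl2 and Ccl7 values without a filter on low counts, with limma-voom and with cell log2 values averaged missed the threshold, at adjusted p of 0.926, 0.676 and 0.928 for Ccl2.

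Compared with endothelial-like cells, the graft effect could be set side by side in 3 hearts only (BM12 WT 1, BM12 WT 3 and BM12 IL33 KO 4), those with 3 or more cells of each kind. Over 3600 genes, 3 passed the test (0.0833%), namely Hbb-bs, Hba-a2 and Ptgs2, and 207 had an unadjusted p of 0.05 or less. For Ccl2 the fibroblast effect was -1.41 and the endothelial-like effect 0.90 in these hearts, a difference of -2.31 ± 0.97 (SE, adjusted p = 0.631). The test has 1 knockout heart, assumed to vary like the wild-type hearts, so a graft effect and that heart's own value cannot be told apart.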

How the data were processed

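Cells of 6 heart grafts (3 BM12 WT, 3 BM12 IL33 KO, day 14) were hashed, pooled and run once on the 10x 3' platform. Per the labels and the study's methods, the authors aligned reads to mm10 with Cell Ranger, filtered cells in Partek Flow 10.0.23.0425 (cells of 1500 to 14977 UMIs and up to 19.6% mitochondrial UMIs are present, after the study's joint limits on UMIs, genes and mitochondrial share, set against doublets and poor cells) and deposited log2(CPM + 1) per cell and gene, with hashtag, graft and cell type per cell. Values were returned to CPM and UMIs here: 99.94% of low values lay within 0.05 of a whole UMI. By a separate rule with a wider tolerance, 20 of 22337 symbols held repeated values away from a whole UMI. No doublet caller was run; alternatives left out cells with 2 or more of 10 immune markers, or the tenth of cells with the most UMIs.

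The deposited unit is not a count, so mean CPM over the fibroblasts of a heart was tested as log2(mean CPM + 10) with limma 3.58.1 (lmFit, eBayes with trend, R 4.3.3), hearts as replicates, for genes with 10 or more UMIs and a UMI in 3 or more hearts, with Benjamini-Hochberg adjustment over all of them. The prior degrees of freedom were infinite, so each gene's variance was that of the trend, and its own spread between hearts had no weight. The limma p-values and SEs of that fit thus measure a difference against the variance usual at that level, not against the gene's own replication. The study gives 3 hearts a group and does not state the replicates of its gene tests. Here hearts were the replicates of every test. Effects in 2 cell types were compared on the within-heart difference. Single values had two-sided exact permutation tests. Thinned shares are the expected shares of cells with a UMI at 1500 UMIs.

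The genes named were the 4 fibroblast markers and 7 endothelial genes, all called genes, the 8 with the largest difference each way among those with 100 or more UMIs, an unadjusted p of 0.05 or less and groups that did not overlap, the 10 of highest level, the 10 of highest ratio to the next type among those at 200 CPM or more, up to 6 a list, 8 genes the study named in fibroblasts, Egfr and Il1rl1; others are said to be chosen after their values were seen. The members and lists were chosen with earlier results of these data known. Coordinates are from GENCODE vM21 (GRCm38), in which 56 of 56 symbols looked up matched. Tested on counts simulated for these hearts, no call was made in the set without planted changes. Whether those counts held levels carried by single cells, as found in these hearts, is not given here. The absence of calls in that set is therefore not read as a measure of false calls in these data. In the sets with planted changes every true call had the right direction, most of the smaller changes were missed, and the share of false calls was above the adjusted threshold. The values of some listed genes are not reported here.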

Additional observations from a re-analysis of the deposited data

Results flagged for a closer look

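Of 3600 genes, 3 passed limma's test of the within-heart difference between the graft effect (BM12 WT minus BM12 IL33 KO) in fibroblasts and in endothelial-like cells. BM12 WT hearts 1 and 3 were set against BM12 IL33 KO 4 alone, with 8 endothelial-like cells, so a graft difference cannot be told apart from that heart's own value. For Hbb-bs the fibroblast effect was 2.34 and the endothelial-like effect -5.64 on the log2 scale, a difference of 7.98 ± 1.17 (SE, adjusted p = 3.8e-08). For Hba-a2 the effects were 2.10 and -5.44, a difference of 7.54 ± 1.25 (SE, adjusted p = 2.9e-06). For Ptgs2, the inducible enzyme of prostaglandin synthesis, they were -0.43 and 4.43, a difference of -4.87 ± 1.10 (SE, adjusted p = 0.012).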

How the results depend on the processing

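No paired analysis was possible because the hearts are numbered 1 to 3 in one group and 4 to 6 in the other. The 13 calls became 0 with no filter on low counts, 1 with a pseudocount of 1 CPM, 1 with CPM of summed UMIs, 0 with limma-voom, 6 with cells of 0 of 7 endothelial genes and 2 with all annotated fibroblasts; among alternatives chosen after seeing the data they became 8 without the tenth of cells with the most UMIs, 0 with the mean of log2 values, 3 without the highest cell (67 genes at an unadjusted p of 0.05 or less) and 22 with hearts weighted by cells. At an unadjusted p of 0.05 or less there were 155, 343 and 459 genes where the count was 0. Leaving out 1 heart gave 1 to 23 calls, 156 to 352 genes past 2-fold and a share difference of -0.51 to 5.31 points. The 319 genes past 2-fold became 138 with no filter, 203 and 66 with pseudocounts of 1 and 50 CPM, 123 without cells of 2 or more immune markers and 54 without the highest cell. The 3 differences from endothelial-like cells became 5 with 50 CPM added. Leaving out 1 heart gave Il33 -1.22 to 0.19 and Il34 -0.13 to 0.28. Directions turned for Il33 (0.71 with limma-voom, 0.62 without hearts of under 10 cells, 0.85 weighted, 0.19 without BM12 WT 2, the heart with none), Il34 (-0.16 with limma-voom, -0.14 weighted, -0.13 without BM12 IL33 KO 4 or 5), Col1a1 (0.26 without hearts of under 10 cells, 0.00 with the mean of log2 values), Hba-a2 (-0.52 with 0 of 7 endothelial genes, -0.03 with the mean of log2 values), Ndrg1 (0.12) and Egfr (-1.17) with 0 of 7 endothelial genes, and Serpina3n (-0.85), Cxcl14 (-0.53) and Ccl11 (-0.30) without cells of 2 or more immune markers; the cause was not tested. Of 632 log2 differences of 32 named genes, 447 kept direction and side of the threshold. Depth limits the hearts with 4 cells most, at 22452 and 31254 UMIs.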
